A study of Homo sapiens with 2 samples.

Results

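The semaphorin, plexin and neuropilin genes were examined for regions bound by TCF7L1 in colon adenocarcinoma cells. The group holds 31 of the 20046 protein-coding genes of GENCODE release 44: 20 semaphorins, 9 plexins and 2 neuropilins. Its members were chosen by gene family, but the group as such was selected on the fold enrichment of the SEMA3A promoter site, known from an earlier pass over the same TCF7L1 list. The values of SEMA3A are therefore a description, and the shares over the group are set beside all protein-coding genes without a test.

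Semaphorins are secreted or membrane-anchored guidance proteins. Plexins are their main receptors, and neuropilins are co-receptors that most secreted class 3 semaphorins need to engage a plexin of the A type. Signalling through plexins alters small GTPases, integrin adhesion and the actin cytoskeleton, and it steers axons, vessels and migrating epithelial or tumour cells. TCF7L1 is a DNA-binding factor of the TCF/LEF family, which recognises sequences built on CTTTG and is best known as a repressor of Wnt target genes.

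HCT116 is an established human colorectal cancer cell line. In both samples, TCF7L1 itself was knocked down with the lentiviral short hairpin shTCF7L1-2, and a FLAG-tagged protein was expressed from a pCW57.1 plasmid under 1 µg/ml doxycycline. The TCF7L1 sample expressed pCW57.1-TCF7L1, and the TCF7L1-MUT sample expressed pCW57.1-TCF7L1-MUT, a form with a mutated DNA-binding domain. Chromatin was precipitated with a FLAG antibody and sequenced, and regions of read enrichment were called in each sample on its own. The protein is an induced transgene in stable lines, so binding of the cell's own TCF7L1 was not measured. Each group had 1 sample, so no difference between the samples has a replicate check and no p-value is given.

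The TCF7L1 list held 3762 summits, the points of highest enrichment, in 3663 regions, and the TCF7L1-MUT list held 224 summits in 204 regions. The deposited lists carry no read totals, and the study's own quality table lists libraries of similar size. No value here was scaled by depth. Each summit is listed with its fold enrichment (reads stacked at the summit over those in the local background, with 1 added to each) and with its q-value as a −log10. Median fold enrichments were 4.98 for TCF7L1 and 7.07 for TCF7L1-MUT. Distances run from the summit to the closest transcription start site (TSS) of any transcript of the gene, with negative values upstream, and coordinates are 1-based in GRCh38/hg38.

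Sequences of the bound regions show what the TCF7L1 protein was recovered on. All are from the reference genome, written 5′ to 3′ on the strand of the named gene, which is the minus strand in each case. Capitals mark matches on either strand to patterns of 7 letters. The TCF pattern is CTTTGNN, where each N is an A or a T. The AP-1 pattern is TGACTCA, which reads as TGAGTCA on the opposite strand. The forkhead pattern, marked in the SEMA3C promoter only, is TNTTTAC, where N is an A or a G. The first is a 200-bp stretch of the SEMA3C promoter region around the summit at -268 bp (chr7:80919352-80919551), chosen because it is the one promoter of the group with a TCF match in the 201-bp window around a summit. The run CTTTGATATTTAC in it holds CTTTGAT and TATTTAC, which share 1 base.
SEMA3C promoter: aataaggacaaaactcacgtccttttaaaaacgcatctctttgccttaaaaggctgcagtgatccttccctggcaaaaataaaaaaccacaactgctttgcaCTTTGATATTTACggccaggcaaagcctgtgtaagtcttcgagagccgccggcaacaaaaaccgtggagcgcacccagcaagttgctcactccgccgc

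The SEMA3E promoter region is also shown, over the 137 bp of it that lie upstream of the TSS (chr7:83649140-83649276). The summit lies 115 bp downstream of the TSS, so the stretch holds no base of the 201-bp window around the summit. It is therefore not a like comparison with the SEMA3C stretch, and the SEMA3E window itself held a forkhead match. None of the patterns lies in the 137 bp shown.
SEMA3E promoter: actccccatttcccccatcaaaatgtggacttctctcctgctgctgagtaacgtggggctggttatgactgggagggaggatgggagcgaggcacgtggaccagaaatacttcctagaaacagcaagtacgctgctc

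Away from the promoters of the members, 3 single-copy summits had a TCF match within 100 bp, shown here in 31 bases centred on the match (chr7:83739492-83739522 for SEMA3E, chr5:116378765-116378795 for SEMA6A and chr15:74461298-74461328 for SEMA7A). The SEMA7A summit lies at the promoter of another gene, at -193 bp from UBL7. Each match reads in reverse on the strand shown, as TACAAAG or TTCAAAG.
SEMA3E at -90.4 kb: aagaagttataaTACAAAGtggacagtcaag
SEMA6A at 70.9 kb: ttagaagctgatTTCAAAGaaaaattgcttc
SEMA7A at -27.4 kb: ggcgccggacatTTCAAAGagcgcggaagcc

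Another 3 distal summits had an AP-1 match and no TCF match (chr7:80885719-80885749 for SEMA3C, chr7:83677252-83677282 for SEMA3E and chr5:116652419-116652449 for SEMA6A). All 3 hold the same 7 letters on the strand of the gene.
SEMA3C at 32.7 kb: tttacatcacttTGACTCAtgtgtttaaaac
SEMA3E at -28.2 kb: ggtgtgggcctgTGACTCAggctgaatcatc
SEMA6A at -77.7 kb: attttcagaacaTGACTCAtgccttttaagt

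TCF7L1 summits at the group were concentrated on secreted class 3 ligand genes of chromosome 7. A summit within 2.5 kb of a TSS was found at 3 of the 31 genes, SEMA3A, SEMA3C and SEMA3E, or 9.68% (exact 95% binomial interval 2.04 to 25.8%), beside 4.86% of all protein-coding genes. A summit inside the gene or within 100 kb of a TSS was found at 10 genes, or 32.3% (16.7 to 51.4%), beside 23.1% of all. Both background shares lie within the intervals of the group. With 10 kb in place of 100 kb, 8 members were counted beside 9.32% of all genes, which lies below the interval for 8 of 31 given next. These are the same 8 genes as those with a summit inside the gene, so this is not a separate result. Inside the gene itself the share was 8 of 31, or 25.8% (11.9 to 44.6%), beside 7.23% of all, and this background share lies below the interval. All 8 are genes of 150 kb or longer, and of all such genes 29.6% had a summit inside. The 8 include SEMA3A, on which the group was selected, and 4 of them lie in the same stretch of chromosome 7. The interval takes none of this into account. The 10 genes held 18 summits in 17 regions, and 12 of the 18 summits were on chromosome 7. Intervals cover counting error only.

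No TCF7L1-MUT summit lay inside or within 100 kb of any of the 31 genes, and none of the 18 TCF7L1 summits overlapped a TCF7L1-MUT region. A count of 0 of 31 allows a share of up to 9.68% when 3 counts are taken as the limit, and 11.2% by the exact interval. Over all protein-coding genes the TCF7L1-MUT share was 0.803%, and within 2.5 kb of a TSS it was 0.0948%, so a group of this size would not be set apart by a count of 0. The nearest TCF7L1-MUT summit to any member lay 397.6 kb away, at SEMA4C, and 4 members (SEMA4B, SEMA6D, SEMA7A and PLXNC1) had none on their chromosome.

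**Figure D1:**
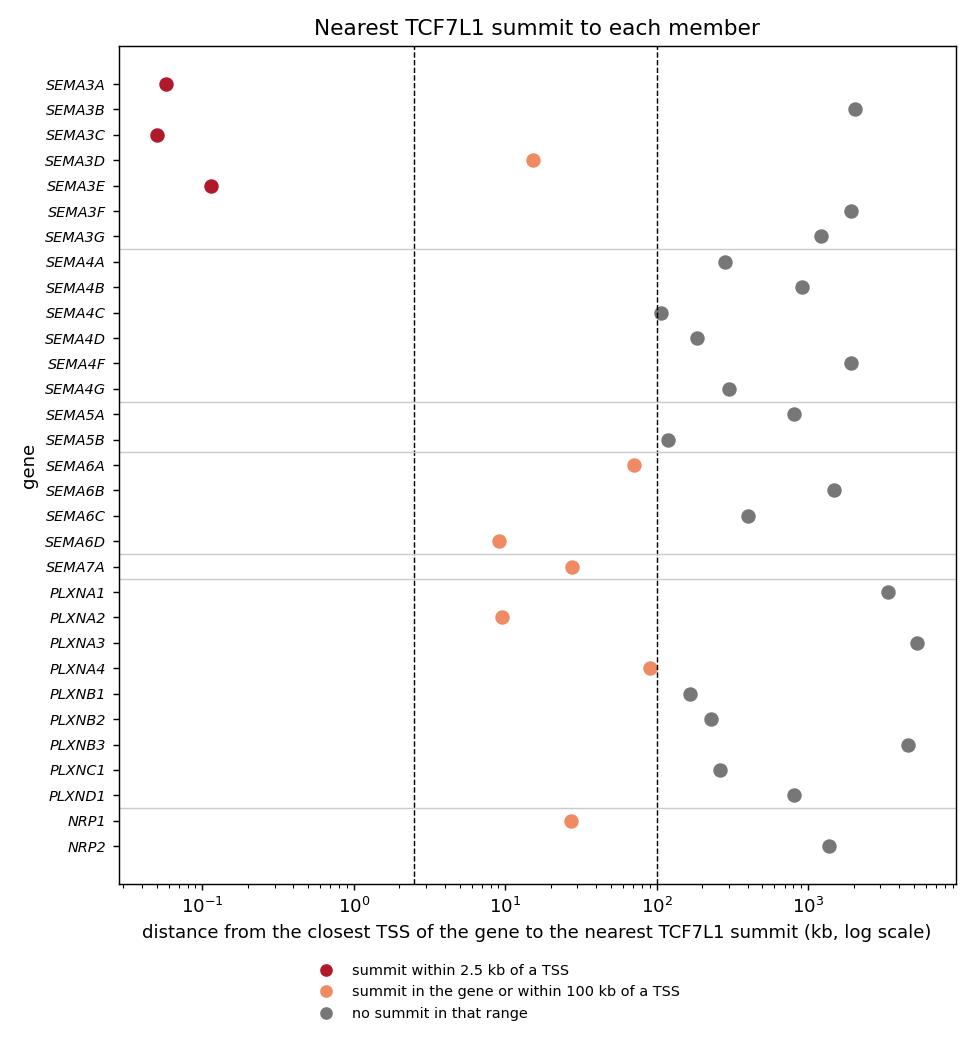
Distance in kb (log scale) from the closest TSS of each of the 31 genes to the nearest TCF7L1 summit, with genes in rows ordered by family and grey lines between families. Dashed lines stand at 2.5 and 100 kb. SEMA3A, SEMA3C and SEMA3E sit at 58, 50 and 115 bp, 7 genes have an orange point for a summit between 9.14 and 90.2 kb, and 21 genes have a grey point beyond 100 kb.

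The secreted class 3 ligands comprised 7 genes, of which 3 had a promoter summit (42.9%, 9.90 to 81.6%, beside 4.86% of all genes) and 4 a summit in the gene or within 100 kb (interval 18.4 to 90.1%, beside 23.1% of all genes). Both counts include SEMA3A, on which the group was selected. The first interval lies above the background, but it cannot show an excess, because the promoter site of SEMA3A was known when the group was chosen. The second interval includes the background. SEMA3A encodes the founding repulsive ligand of neuropilin-1. Its promoter region (chr7:84194850-84195403) was enriched 10.9-fold at a −log10 q-value of 26.4, and 40 reads (exact Poisson interval 28.6 to 54.5) were stacked at the summit over a local background of 2.76. This was the highest value of the group, rank 35 among the 3663 TCF7L1 regions and rank 2 among the 959 TCF7L1 promoter summits of the chromosomes, meaning those at most 2.5 kb from the TSS of a protein-coding gene. The summit lay 58 bp downstream of the start of SEMA3A-202, at -314 bp from the start of SEMA3A-201, and 297621 bp inside the gene when counted from its most distal 5′ end. None of the TCF, AP-1, forkhead or GGGCGG (SP/KLF) patterns was found in the 201 bp around it.

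A second SEMA3A region lay in an intron at 44.1 kb (chr7:84150336-84150944), with a fold enrichment of 5.81 and 32 reads. Its window was repeated sequence: 68.4% of its 31-base words occurred elsewhere in the genome, with a median of 18 copies. It held a TCF match, CTTTGTT, overlapping a forkhead match, TGTTTAC. Reads from other copies may be placed in such a window, and their share was not tested.

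SEMA3C encodes a ligand of both neuropilins and had 5 summits, the most of any member. A pair of them shared the promoter region (chr7:80918982-80919630), with a fold enrichment of 4.05 at -268 bp and 3.50 at 50 bp. The reads numbered 16 and 14, and the −log10 q-values of 2.92 and 1.66 were low for the group. The summit at -268 bp carries the CTTTGAT printed above, 2 to 8 bp from the summit, while that at 50 bp lay in a UTR, had a GC content of 75.1% and held a GGGCGG match. The promoter of SEMA3C was thus bound in the list at less than the median fold of all TCF7L1 promoter summits, 4.59, and SEMA3A well above it.

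Inside SEMA3C, a summit at 32.7 kb (chr7:80885498-80885927) had a fold enrichment of 5.50 with 19 reads, and its AP-1 match ended on the summit base. Another at 41.5 kb (chr7:80876808-80877146) had 5.28 with 30 reads and none of the patterns. The last, at 84.6 kb from the start of a short internal transcript (chr7:80713482-80713842), lay beyond the 3′ end of SEMA3C, 40274 bp from CD36, which was its nearest protein-coding gene. Its fold enrichment was 5.56 with 13 reads, and 91.8% of its words were repeated, with a median of 1773 copies.

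SEMA3E encodes a ligand that binds plexin D1 without a neuropilin, and it had 3 summits. The promoter summit at 115 bp (chr7:83648755-83649276) was enriched 5.88-fold with 16 reads (−log10 q-value 5.79), which is rank 167 of the 959 promoter summits. It held a forkhead match, TGTTTAC, and no TCF match. Upstream of the gene, the summit at -28.2 kb (chr7:83677159-83677517) had a fold enrichment of 6.76 with 24 reads, the second highest of the group, and that at -90.4 kb (chr7:83739300-83739665) had 5.89 with 12 reads, the fewest. Both were nearer to SEMA3E than to any other protein-coding gene.

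SEMA3D, a close relative of SEMA3A, had 1 summit, in an intron at -15.3 kb from an internal start (chr7:85070732-85071185), with a fold enrichment of 5.42 and 14 reads. The remaining class 3 genes, SEMA3B, SEMA3F and SEMA3G, all lie on chromosome 3 and had no summit within 1 Mb, the closest being 1214 kb from SEMA3G. The 7 members on chromosome 3, which also include SEMA5B, PLXNA1, PLXNB1 and PLXND1, had no summit in range, and the 5 on chromosome 7 all had. These are small counts beside the 23.1% of all genes, and 4 of the 5 lie in the same stretch of chromosome 7.

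**Figure D2:**
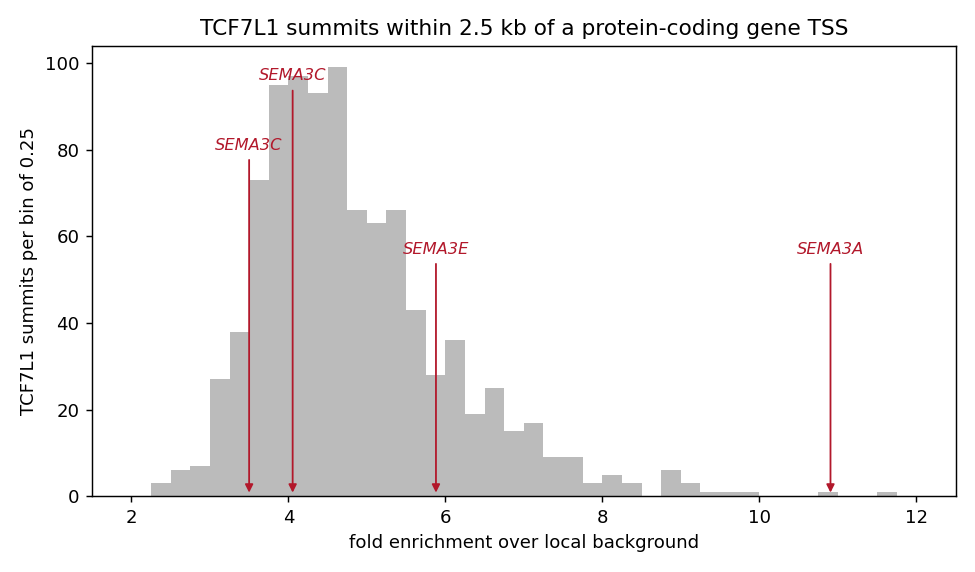
Histogram of the fold enrichment of the 959 TCF7L1 promoter summits (number of summits per bin of 0.25), with arrows at the 4 promoter summits of the group. SEMA3A at 10.9 lies in the upper tail, SEMA3E at 5.88 is above the median of 4.59, and the SEMA3C summits at 4.05 and 3.50 are below it.

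Of the membrane-bound semaphorins, none had a promoter summit, which at a background of 4.86% does not set so few genes apart: the exact upper limits for the 6 class 4, 2 class 5 and 4 class 6 genes were 45.9, 84.2 and 60.2%. None of the 6 class 4 genes (SEMA4A, SEMA4B, SEMA4C, SEMA4D, SEMA4F and SEMA4G) and none of the 2 class 5 genes (SEMA5A and SEMA5B) had a summit in range. The closest of these was SEMA4C, at 107.2 kb with a fold enrichment of 4.49, just beyond the 100 kb limit, followed by SEMA5B at 118.1 kb. Just within that limit was the SEMA3E summit at -90.4 kb. At the limit of 2.5 kb, the last gene within was SEMA3C at -268 bp for its farther summit, and the next was SEMA6D at 9.14 kb.

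Among the 4 class 6 genes, SEMA6A and SEMA6D had summits and SEMA6B and SEMA6C had none. SEMA6A, a transmembrane ligand of A-type plexins, had 1 summit on each side of the gene. The upstream one at -77.7 kb (chr5:116652270-116652728) had a fold enrichment of 5.41 with 17 reads. The other at 70.9 kb (chr5:116378367-116378960) had 5.31 with 27 reads and lay inside COMMD10, a neighbouring protein-coding gene. The closest protein-coding TSS to this summit was an internal start of SEMA6A, and the 5′ end of SEMA6A was 196081 bp away. A start of the lncRNA SEMA6A-AS1 was nearer, with the summit at -68805 bp from it. SEMA6D, which signals through plexin A1, had an intronic summit at 9.14 kb (chr15:47727483-47727829) with a fold enrichment of 4.02, 15 reads and none of the patterns.

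SEMA7A, a lipid-anchored semaphorin that binds plexin C1 and integrins, had a summit at -27.4 kb (chr15:74461197-74461562) with a fold enrichment of 5.11 and 29 reads. It lay at -193 bp from UBL7 and inside the divergent lncRNA UBL7-DT, 31 bp from its start. This summit is therefore at the promoter of another gene, and its assignment to SEMA7A rests on distance alone.

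No promoter summit was listed at the receptor genes, with exact upper limits of 33.6% for the 9 plexins and 84.2% for the 2 neuropilins beside 4.86% of all genes. Of the plexins, PLXNA2 and PLXNA4 had 1 intronic summit each, a share of 22.2% beside 23.1% of all genes, and PLXNA1, PLXNA3, PLXNB1, PLXNB2, PLXNB3, PLXNC1 and PLXND1 had none in range. The PLXNA2 summit at -9.60 kb from an internal start (chr1:208226394-208226988) had a fold enrichment of 5.44 with 25 reads. The PLXNA4 summit at 90.2 kb (chr7:132486109-132486494) had 3.84 with 20 reads. Of the neuropilins, NRP1 had an intronic summit at -27.3 kb from an internal start (chr10:33290785-33291123), with a fold enrichment of 4.23 and 20 reads. This summit lay 45294 bp downstream of the 5′ end of NRP1. NRP2 had no summit within 1 Mb, the closest being 1380 kb away. None of the 3 receptor summits held any of the patterns.

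**Figure D3:**
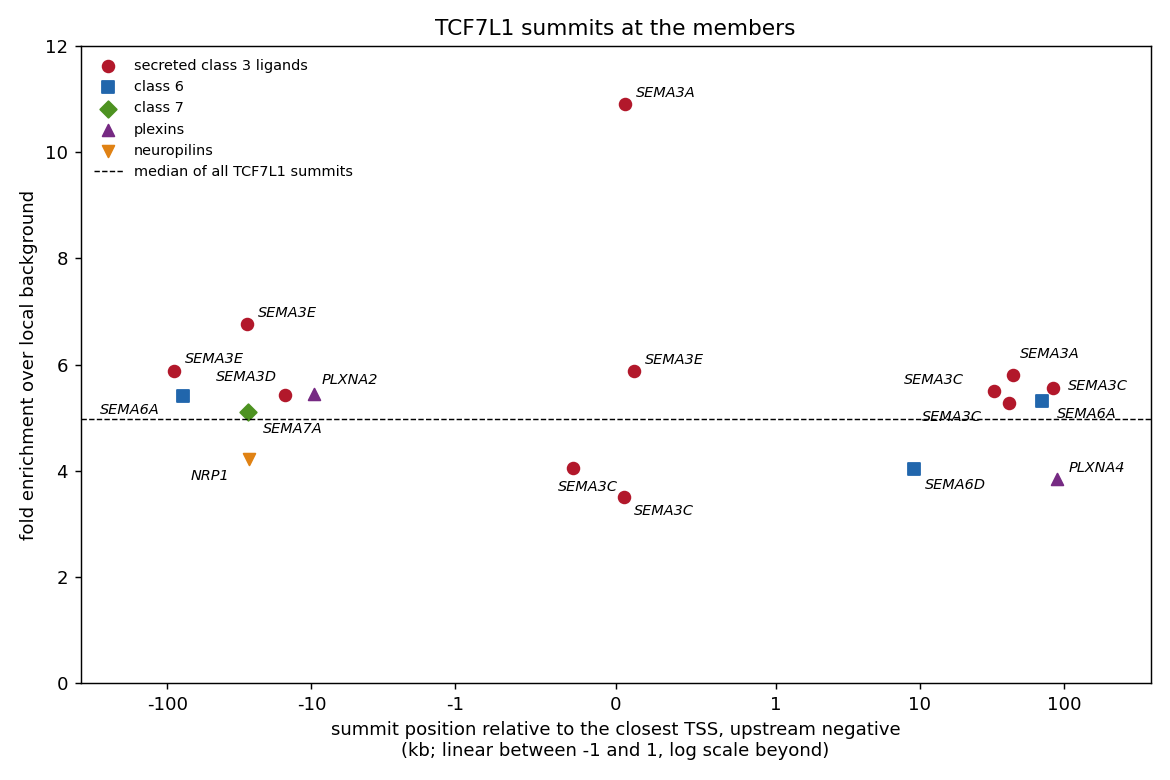
Fold enrichment over local background of the 18 TCF7L1 summits against their position from the closest TSS of the gene in kb, upstream negative, on an axis that is linear within 1 kb of the TSS and logarithmic beyond. Symbols give the family, and the dashed line is the median of all TCF7L1 summits, 4.98. The SEMA3A promoter at 10.9 stands alone, and the other 17 summits lie between 3.50 and 6.76.

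In strength, the 18 summits had a median fold enrichment of 5.42 (binomial interval of the median 4.23 to 5.81), which includes the median of the whole list, 4.98. Reads at the summit ranged from 12 to 40 with a median of 19.5, over a local background of 1.21 to 4.87. By annotation 10 summits were intronic, 2 were in a UTR and 6 lay outside the gene. The nearest protein-coding TSS was that of the member itself for 16 of the 18, the exceptions being the summits near CD36 and UBL7. The window was single-copy sequence for 16.

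The members with and without a summit differed in length. Their median length was 54.7 kb, against 27.5 kb for all protein-coding genes, and it was 207 kb for the 10 members with a summit against 32.7 kb for the 21 without. Among genes of 150 kb or longer, 8 of 10 members had a summit inside the gene or within 100 kb, or 80.0% (44.4 to 97.5%), beside 41.4% of the 2224 such genes. The 2 long members without a summit were SEMA5A and PLXNC1. Among shorter genes, 1 of 14 members under 50 kb (SEMA7A) and 1 of 7 members from 50 to 150 kb (SEMA6A) had one, or 7.14% (0.181 to 33.9%) and 14.3% (0.361 to 57.9%), beside 18.7% and 26.9% of all genes of those lengths. Inside the gene itself, the counts were 8 of the 10 longest members beside 29.6% of such genes, 0 of 7 beside 10.2% and 0 of 14 beside 2.44%. The split by length was made after the values were seen.

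**Figure D4:**
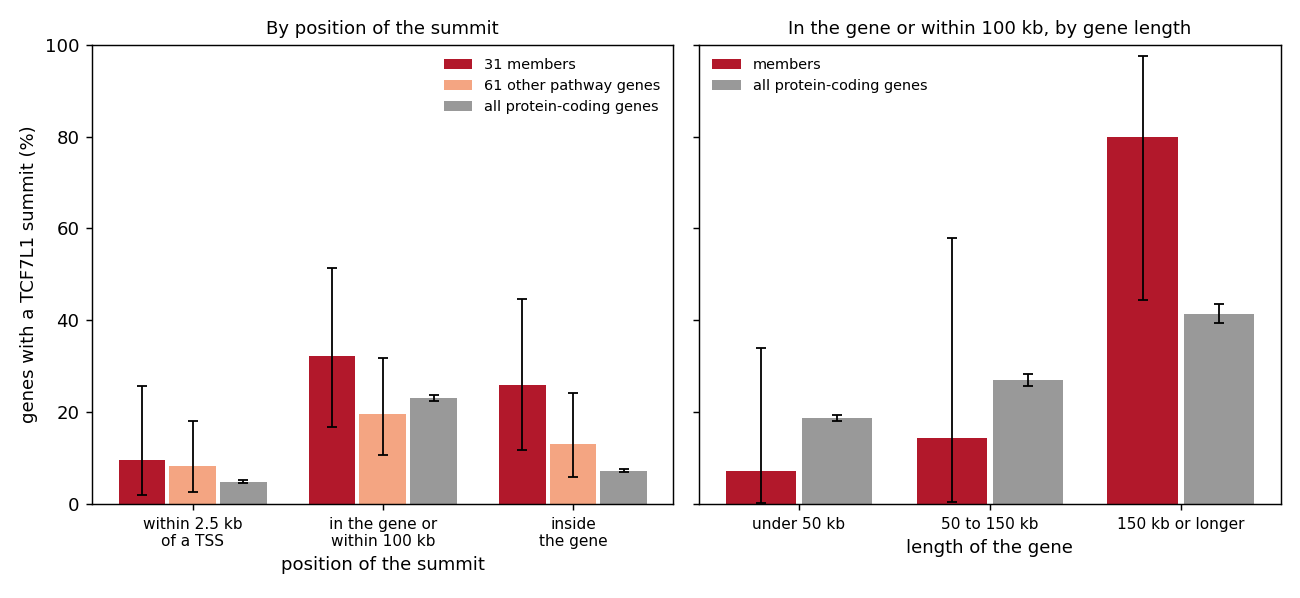
Percent of genes with a TCF7L1 summit, with exact 95% binomial intervals. On the left, the 31 members, the 61 other pathway genes and all 20046 protein-coding genes by position of the summit, and on the right, members and all genes by gene length for summits in the gene or within 100 kb. Members reach 80.0% at 150 kb or longer and stay at 7.14 and 14.3% in the shorter classes.

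Per length of sequence searched, the members had 1.83 TCF7L1 summits per Mb (exact Poisson interval 1.08 to 2.89), beside 1.45 around all protein-coding genes and 1.25 over all chromosomes. The 5 members on chromosome 7 had 12 summits in 2.40 Mb, or 5.01 per Mb (2.59 to 8.75), beside 1.33 over the whole of that chromosome. The 26 members elsewhere had 6 summits in 7.44 Mb, or 0.806 per Mb (0.296 to 1.76). SEMA3C, SEMA3E, SEMA3A and SEMA3D are neighbours on chromosome 7, with SEMA3E, SEMA3A and SEMA3D next to each other, so their summits do not come from independent places. The division by chromosome was likewise made after the values were seen.

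**Figure D5:**
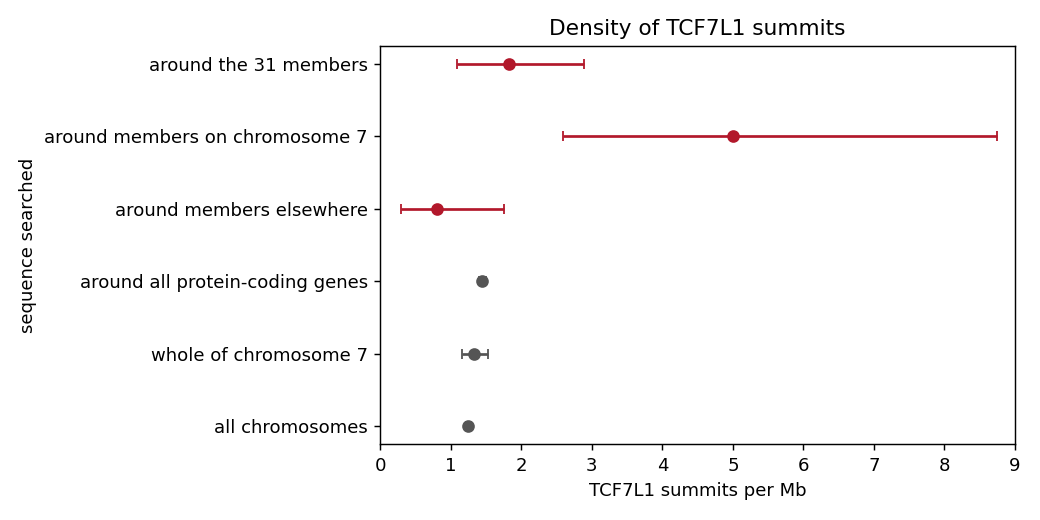
TCF7L1 summits per Mb of sequence searched, with exact 95% Poisson intervals, for the members in red and the comparison sequence in grey. Members on chromosome 7 stand at 5.01 per Mb and members elsewhere at 0.806, on either side of the 1.45 around all protein-coding genes.

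Sequence patterns were counted in the 201 bp around each summit. The TCF pattern was present at 6 of 18 summits, or 33.3% (13.3 to 59.0%), beside 26.8% of all TCF7L1 summits on the chromosomes, 15.9% of the TCF7L1-MUT summits, 7.05% of windows at starts of protein-coding genes and 7 of 36 windows (19.4%) placed 1 kb to either side of the member summits. The AP-1 pattern was present at 3 summits (16.7%) beside 7.31% of all TCF7L1 summits, and the forkhead pattern at 4 (22.2%) beside 12.6%. GGGCGG was present at 1 (5.56%) beside 14.4%. For each pattern the share of all TCF7L1 summits lay within the interval of the member share. At 7 summits none of the patterns was found, the SEMA3A promoter among them.

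Promoter sequences of RefSeq (GRCh38.p14, 250 bp before to 50 bp after a start) were found for 27 of the 31 genes, and not for NRP1, SEMA3A, SEMA6A and SEMA6B. The TCF pattern occurred in 8 of the 48 member promoters (16.7%) and in 13.8% of the 34943 promoters of all genes, so letters that match were also present at members with no summit, such as PLXNA1.

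The other genes of semaphorin signalling were taken from a list of 61, comprising 16 receptors and co-receptors, 4 other neuropilin ligands and 41 intracellular effectors. A promoter summit was found at 5 of them, or 8.20% (2.72 to 18.1%), and a summit inside or within 100 kb at 12, or 19.7% (10.6 to 31.8%), and both intervals include the shares of all protein-coding genes. None had a TCF7L1-MUT summit in range. By role, 2 of the 16 receptors and co-receptors, none of the 4 ligands and 10 of the 41 effectors had a TCF7L1 summit.

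The 5 genes with a promoter summit act at several steps. MET, the hepatocyte growth factor receptor that associates with B-type plexins, had a summit at -359 bp (chr7:116723540-116724354) with a fold enrichment of 5.13. ARHGEF12, whose product is bound by B-type plexins, had one at -396 bp (chr11:120335831-120336254) with 4.77. ROCK2, a kinase that acts on the actin cytoskeleton, had one at 436 bp (chr2:11343544-11343871) with 4.80, and FYN, a Src-family kinase downstream of SEMA3A, had one at 424 bp (chr6:111872395-111872789) with 4.26. GSK3B, a kinase that phosphorylates the SEMA3A effector CRMP2 and also acts in the Wnt pathway, had one at -2002 bp (chr3:120004008-120004468) with 7.22, the highest of the 5. This GSK3B summit lay inside the gene, upstream of an internal start. MET had 2 TCF7L1 summits in range, 1 of them inside the gene. The MET summit at -359 bp may therefore also lie inside its gene, upstream of an internal start. The other distances are likewise to the closest start of any transcript, which need not be the 5′ end of the gene. A count with the 5′ end alone was not made for these genes. A TCF match lay in the windows of MET, ARHGEF12 and GSK3B. The SEMA3A promoter, at 10.9, exceeded all 5, but the group was selected on that value, so this is description only.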

How the data were processed

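Per the labels and the study's methods, the authors trimmed reads, mapped them to GRCh38/hg38 with BWA (0.7.12) and called peaks in each sample with MACS2 (2.1.0). Whether an input library was used and the q-value threshold are not given in the sources used here. The deposited lists hold, as the authors' caller wrote them, a fold enrichment (a ratio to local background), the −log10 p-value and q-value, and a score that was not used. Each group had 1 sample.

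Summits were assigned to GENCODE release 44 transcripts. All summits of a region were kept, and all TCF7L1 regions were used. Reads at a summit were solved from the fold enrichment and a Poisson p-value. Intervals are exact 95% intervals. A window was called repeated when at least 50% of its 31-base words occurred elsewhere in the genome. Genes were named if they were members, or pathway genes with a summit within 2.5 kb. Summit counting, pattern search and read solving were tested on simulated data. Python 3.11.15, scipy 1.17.1 and pysam 0.24.0 were used. The members, gene lists and patterns were chosen with earlier results of these data known.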

Additional observations from a re-analysis of the deposited data

How the results depend on the processing

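The member counts, densities, median fold and pattern counts were recomputed under alternative settings. This gave 41 comparisons over 7 results, many of which share a setting and are not independent. Counts were held to within 1.5 times the reported count, and the density and median fold to their intervals. By these limits 38 stayed and 3 counts did not. With the 5′ end of the gene as its only TSS, 1 member (SEMA3E) had a promoter summit instead of 3, beside 3.41% of all genes, because the starts nearest the SEMA3A and SEMA3C summits are internal to the longest annotated transcripts. Summits with a TCF match numbered 3 with 50 bp to either side and 10 with 250 bp, instead of 6. A fold enrichment of at least 5 left 2 members with a promoter summit (1.92% of all genes), as did a q-value of at most 0.001. The members with a summit in range numbered 7 to 10 of 31. The share of all genes fell from 23.1% to 11.6% at a fold enrichment of at least 5 (7 members). It fell to 9.32% for a summit inside the gene or within 10 kb of a TSS (8 members). That 9.32% lies below the exact interval for 8 of 31 (11.9 to 44.6%). The 8 members are those with a summit inside the gene, so the 10 kb count is not a separate result. The TCF7L1-MUT count stayed at 0 under each setting tried. With single-copy windows alone, an alternative chosen after seeing the data, 16 summits remained, 4 of them with a TCF match. No paired analysis was possible because the design has 1 sample per group, which also left no replicate to leave out.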

Other observations

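The stretch from SEMA3C to SEMA3D on chromosome 7, chosen after the values were seen, spans 4.44 Mb and holds 7 protein-coding genes, 4 of them members. It had 17 TCF7L1 summits, or 3.82 per Mb (exact 95% Poisson interval 2.23 to 6.12), beside 1.33 over the whole chromosome. Of these, 10 were at members and 7 were not. A pair of the latter lay 77848 and 19569 bp from a start of HGF, the ligand of MET, with a fold enrichment of 7.27 and 6.52. Another lay 50048 bp from a start of CACNA2D1, a calcium channel subunit, with 7.33, and one at -105 bp from a start of PCLO, a presynaptic scaffold gene, with 4.98. The last 3 were upstream of members but beyond 100 kb, at -189659 bp from SEMA3C with 6.97 and at -209367 and -222196 bp from SEMA3A with 6.94 and 5.92.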
